A study of Drosophila melanogaster with 32 samples.

Results

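The blocks described here are stretches of satellite-1.688, a repeat family named after its buoyant density, that lie on scaffolds of the Drosophila melanogaster assembly with no place on a chromosome arm. They are the entries of the study's satellite block count table whose chromosome name is none of X, Y, 2L, 2R, 3L, 3R and 4. This rule used no measured value, and it selected 454 of the 652 blocks in the table. The blocks lie on 373 scaffolds. The study sequenced RNA of whole newly hatched adults of 4 genotypes, in males and virgin females separately, with 4 libraries in each of 8 groups and 32 libraries in all. Wild type (WT) was Oregon-R. Zhr1 flies carry an X-chromosome without its large pericentromeric satellite-1.688 array, and Zhr1 males also have a wild-type Y-chromosome that is not translocated. PoX2Df1.688 flies have lost a short run of satellite-1.688 repeats downstream of CG1840 on the X-chromosome. PofD119 flies have a deletion in the coding region of Pof, the gene of a protein that binds chromosome 4. Each library came from 10 pooled flies that were 6 to 24 h old, made up of 3 flies collected at 6 to 8 h, 4 at 14 to 16 h and 3 at 22 to 24 h. The stocks were not isogenized, so other differences between the stocks cannot be told apart from the named alleles.

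Satellite-1.688 is an AT-rich tandem repeat that forms a main part of the pericentromeric heterochromatin of the X-chromosome, and shorter arrays of it are scattered along the X-chromosome arm. Related members of the family lie in heterochromatin of other chromosomes. RNA from the satellite is known to locate to centromeric regions, and the D1 and Topoisomerase 2 proteins bind satellite DNA of this kind. Repeats of this length are difficult to assemble, and pieces of heterochromatin, the Y-chromosome included, therefore often remain as short scaffolds outside the chromosome arms.

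One unit shows the kind of sequence by which the blocks were found. It is the X-chromosomal heterochromatic unit among the 9 sequences that the study used to search the genome, and the first 300 of its 359 bases are printed. The capitals mark bases 213 to 243, the longest stretch of 31 bases within these 300 that the 353-base member of the family carries without a change.
Xhet unit, bases 1 to 300, chromosome X: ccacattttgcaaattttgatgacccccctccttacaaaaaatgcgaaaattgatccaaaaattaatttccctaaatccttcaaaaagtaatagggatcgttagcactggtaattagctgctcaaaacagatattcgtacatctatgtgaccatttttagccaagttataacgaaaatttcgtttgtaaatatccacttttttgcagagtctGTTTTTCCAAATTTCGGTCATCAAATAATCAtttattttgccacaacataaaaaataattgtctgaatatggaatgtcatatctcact
The 9 search sequences were 258 to 361 bases long and held 66.3% to 71.3% A and T. The other 8 were 70.1% to 88.4% identical to the Xhet unit over the aligned columns. The highest value was that of the 258-base sequence, which aligned over only 172 columns, where the others aligned over 349 to 365. The 353-base member, of a kind known from heterochromatin of 3L, was 86.6% identical to the Xhet unit. The authors counted every place of a multi-mapping read, so a read that maps to several blocks was counted in each. How many reads the blocks shared was not measured here, and 2 of the 652 blocks repeated the counts of another in all 32 libraries.

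The 454 blocks were 279 to 6337 bp long with a median of 1346 bp. Their summed length was 659.136 kb, against 109.964 kb for the 107 blocks on the X-chromosome and 88.284 kb for the 74 blocks on 3L. Most scaffolds held a single block (323 of 373), 44 held 2 or 3 blocks, and 6 held 4 or more. In 211 blocks the satellite began at base 1, the edge of the scaffold. Read counts per block over the 32 libraries ran from 4 to 9586 with a median of 217, and 321 blocks had 100 counts or more. The 50 blocks with the most reads held 46.1% of all reads on the unplaced blocks, and the single highest block held 4.66%.

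Library depth was set by the read pairs counted in genes, which ran from about 12186500 to 37992600 per library. The WT libraries were among the deepest (26816100 to 37992600), and the Zhr1 and PoX2Df1.688 libraries the shallowest (12186500 to 19640700), so a block with few reads had more chance to be seen in WT. The target gene matched the labels in males, where Pof was at 328 ± 15.3 CPM in WT and 12.3 ± 1.06 in PofD119 (SD, n = 4). CPM are reads scaled to 1000000 read pairs counted in genes. In females, where Pof is low, it was at 13.4 ± 0.695 CPM in WT and 8.37 ± 1.67 in PofD119. The male-specific roX RNAs summed to 1039 to 1315 CPM in every male library and to 1.65 to 4.77 CPM in every female library. Yolk protein genes, which mark females, summed to 6.73 to 358 CPM in the WT male libraries, to 46.6 to 127 CPM in the Zhr1 males and to no more than 17.03 CPM in the PofD119 and PoX2Df1.688 males. Eggshell genes differed widely between female libraries, from 2.92 CPM in a PofD119 library to 4255 CPM in a Zhr1 library. Block values below are CPM on the same library scale.

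Most of the satellite block counts of WT flies lay on the unplaced scaffolds, which also held 454 of the 652 blocks. In WT females the summed level of the 454 blocks was 226.9, 253.2, 276.0 and 231.6 CPM, and in WT males 303.5, 272.5, 299.96 and 207.6 CPM. The unplaced blocks took 78.8% to 82.1% of all block counts in WT females and 72.3% to 75.2% in WT males, where a read counts at every place. Per kb, the unplaced blocks had 0.375 CPM in WT females and 0.411 in WT males. The X blocks had 0.255 and 0.208 CPM per kb, and the 3L blocks 0.314 and 0.788. The sexes of WT overlapped in the summed level. The male to female difference was 0.12 on the log2 scale, with a two-sided exact permutation p of 0.457 and an adjusted p of 0.508 over 10 comparisons of sums.

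The summed level was lowest in Zhr1 females and highest in PoX2Df1.688 flies. It was 48.5, 55.9, 64.4 and 59.7 CPM in the 4 Zhr1 female libraries. That was 4.33-fold below WT females, with no overlap between the groups (log2 difference −2.11, exact permutation p = 0.0286, n = 4 and 4). In Zhr1 males the sum was 164.2, 155.9, 191.4 and 216.2 CPM, or 1.48-fold below WT males, and the highest Zhr1 library passed the lowest WT library (log2 difference −0.57, exact permutation p = 0.0571, n = 4 and 4). The smallest p that 4 libraries against 4 can give is 0.0286, and the adjusted p over the 10 comparisons of sums is then 0.0571, so no sum passed 0.05 after adjustment. Whole flies were used, so fewer cells with satellite RNA and less satellite RNA per cell cannot be told apart. In Zhr1, less transcription and the missing satellite DNA cannot be told apart.

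PoX2Df1.688 flies had more reads on these blocks in both sexes. The sum was 644.2, 568.1, 556.3 and 729.8 CPM in females, 2.52-fold above WT females (log2 difference 1.33, exact permutation p = 0.0286, adjusted 0.0571, n = 4 and 4). It was 558.8, 580.4, 518.2 and 478.2 CPM in males, 1.99-fold above WT males (log2 difference 0.99, exact permutation p = 0.0286, adjusted 0.0571, n = 4 and 4). All PoX2Df1.688 libraries were above all WT libraries of their sex. The deleted repeats themselves lie on the X-chromosome arm and are not among these blocks.

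PofD119 females had a moderately higher sum, and the sums of PofD119 and WT males overlapped. The sum was 358.2, 303.0, 364.2 and 319.3 CPM in PofD119 females, 1.36-fold above WT females without overlap (log2 difference 0.45, exact permutation p = 0.0286, adjusted 0.0571, n = 4 and 4). In PofD119 males it was 309.1, 265.9, 287.2 and 265.9 CPM, of which the first is above the highest WT male library and the others lie within the WT range (log2 difference 0.07, exact permutation p = 0.771, n = 4 and 4). That male difference turned to −0.051 without WT male replicate 4, the lowest WT male library.

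**Figure D1:**
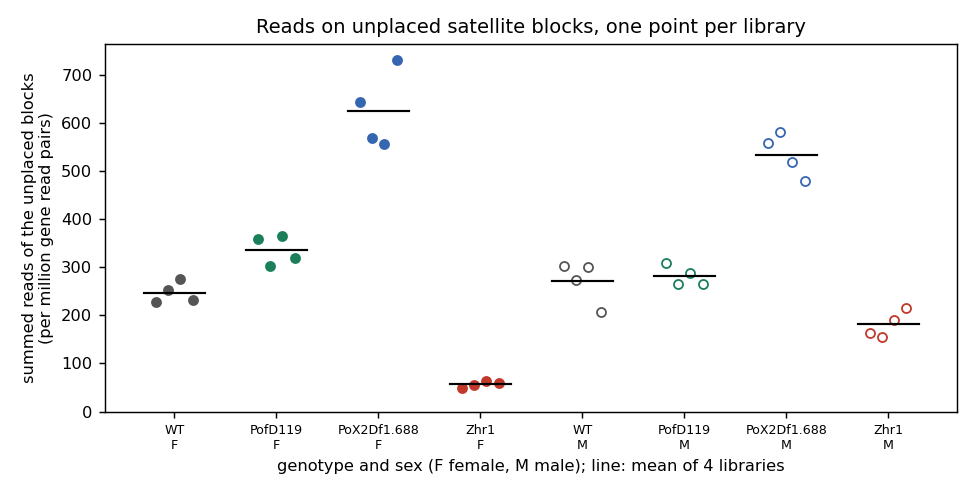
Summed reads of the 454 unplaced satellite blocks (vertical axis, CPM) in each of the 32 libraries, by genotype and sex (horizontal axis); each point is a library and each line the mean of 4. The 4 Zhr1 female libraries lie between 48.5 and 64.4, below all others, and the 8 PoX2Df1.688 libraries between 478.2 and 729.8, above all others.

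The unplaced blocks were also set against the 107 blocks on the X-chromosome within the same libraries, a ratio that does not depend on library scaling. This asks whether the unplaced blocks moved by more or less than the satellite of the X-chromosome arm. In Zhr1 the unplaced sum relative to the X sum was lower than in WT by 2.09 on the log2 scale in females and by 0.80 in males. In PofD119 it was also lower, by 0.73 in females and by 1.21 in males. There the X sum itself was higher than in WT, at 62.7 ± 3.45 against 27.996 ± 3.70 CPM in females and 55.8 ± 7.74 against 22.9 ± 1.38 CPM in males (SD, n = 4). In PoX2Df1.688 females it was higher, with a difference of 0.77. Each of these 5 differences had an exact permutation p of 0.0286 and an adjusted p of 0.0343 over 6 comparisons, n = 4 and 4. In PoX2Df1.688 males the difference was 0.25 and did not pass (exact permutation p = 0.143, n = 4 and 4). The Zhr1 male difference had p = 0.0571 by the exact test after leaving out any single WT male library, with differences of −0.73 to −0.89. Relative to the 3L blocks, a comparison added after the data were seen, the unplaced sum in Zhr1 was lower by 2.45 in females and by 1.45 in males (exact permutation p = 0.0286, adjusted 0.0408 over 10 comparisons, n = 4 and 4). The 3L sum was itself higher in Zhr1 males, at 129 ± 25.5 against 69.5 ± 11.4 CPM in WT males. In females it was 35.2 ± 5.52 against 27.7 ± 3.69 CPM (SD, n = 4). In PofD119 the unplaced sum was higher relative to 3L, by 0.31 in females (adjusted p = 0.0408, exact permutation) and by 0.33 in males (adjusted p = 0.0635, exact permutation), the opposite direction to that against X. The 3L sum was 30.3 ± 3.09 CPM in PofD119 females and 57.7 ± 5.35 CPM in PofD119 males. In PoX2Df1.688 the unplaced sum was higher relative to 3L by 0.17 in females (adjusted p = 0.400, exact permutation) and by 0.30 in males (adjusted p = 0.0408, exact permutation). The 3L sum was 63.3 ± 15.0 CPM in PoX2Df1.688 females and 112 ± 17.5 CPM in PoX2Df1.688 males.

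The lower sums of Zhr1 came from blocks without any read rather than from an even reduction. Of the 454 unplaced blocks, 330 (72.7%) had no read in any of the 8 Zhr1 libraries. These are zeros of the deposited counts, and whether a step before deposit contributed to them was not tested. By the same count over 8 libraries, 2 blocks had no read in WT, 3 in PofD119 and 2 in PoX2Df1.688. On the X-chromosome 6 of 107 blocks had no read in Zhr1, against 3 in WT, and on 3L 2 of 74 had none, against 0 in WT. The 330 blocks were not only blocks with few reads. They held 44993 reads in WT, 70.7% of the WT reads on unplaced blocks, and 80 of the 100 blocks with the most reads outside Zhr1 were among them. A read was present in all 24 other libraries in 130 of them. These 330 blocks were picked by their Zhr1 values, so no test was made of them.

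The next 3 blocks were among the highest in WT, and their values show the pattern per library. The block 211000022278342:55-1412 had 4.54, 4.77, 5.61 and 5.67 CPM in WT females and 1.87, 1.88, 2.07 and 1.44 CPM in WT males. It had 0 reads in all 8 Zhr1 libraries. With 610 reads in WT females and 229 in WT males, and a floor of 3 counts over each Zhr1 group, its level was at least 121-fold lower in Zhr1 females and at least 38.4-fold lower in Zhr1 males. The block 211000022278845:68-2079 had 600 reads in WT females, and its level was at least 119-fold lower in Zhr1 females and at least 32.0-fold lower in Zhr1 males. The block 211000022278620:1-1637 had 526 reads in WT females and was at least 105-fold lower in Zhr1 females and at least 42.7-fold lower in Zhr1 males. All 3 had reads in every PofD119 and PoX2Df1.688 library. In PoX2Df1.688 females 211000022278342:55-1412 was at 11.5, 9.70, 10.7 and 10.6 CPM, above every WT female library. These bounds cover only counting error in the group with no read.

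Some blocks with mostly male reads were at 0 in Zhr1 males as well, and 3 of them are given here. The block 211000022280545:1-6000 is satellite over its 6000 bp and had 10.8, 9.84, 14.8 and 7.59 CPM in WT males. It had 0.199, 0.215, 0.447 and 0.549 CPM in WT females and 0 reads in both Zhr1 sexes, so its level was at least 232-fold lower in Zhr1 males and at least 8.15-fold lower in Zhr1 females. The block 211000022280032:1270-3930 had 863 reads in WT males and the block 211000022280548:1-2616 had 803, and both had none in Zhr1 males (at least 145-fold and at least 135-fold lower). Both were present at 5.17 to 7.41 CPM in every PoX2Df1.688 male library. The Zhr1 males carried a wild-type Y-chromosome by the study's description.

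The block with the most reads did not follow this pattern. The block 211000022278421:5-2697 had 7.88, 9.60, 9.46 and 8.19 CPM in WT females and 8.91, 9.45, 11.2 and 11.3 CPM in Zhr1 females. The groups overlapped, and the fitted difference was 0.19 on the log2 scale (SE 0.15, edgeR quasi-likelihood adjusted p = 0.2495). In males it had 18.2, 14.5, 15.9 and 12.3 CPM in WT and 13.04, 8.33, 11.4 and 14.9 CPM in Zhr1, which also overlapped. PoX2Df1.688 flies had 18.9 to 27.1 CPM in females and 24.3 to 34.6 CPM in males, above every WT library of the same sex.

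**Figure D2:**
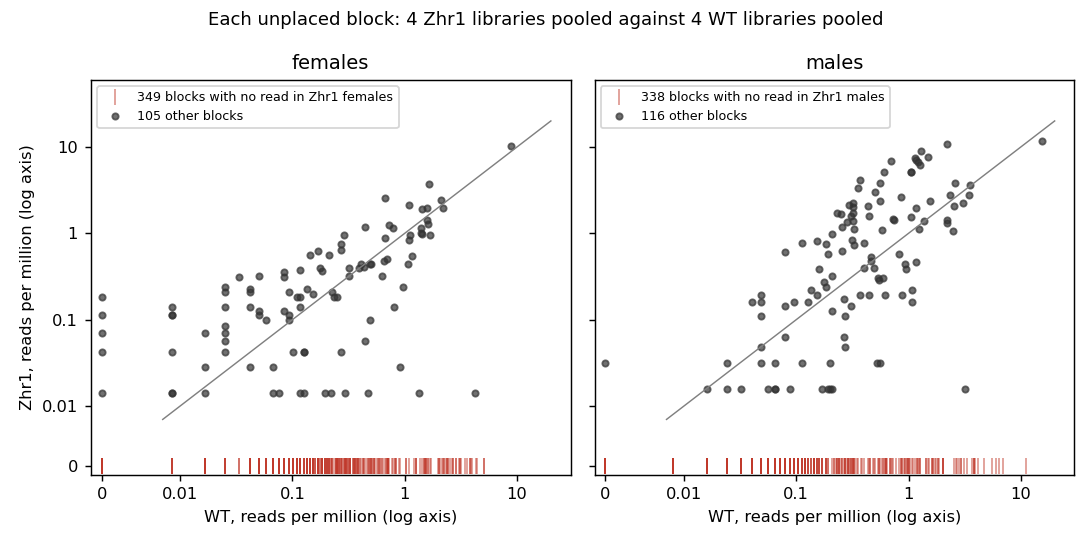
Level of each unplaced block in the 4 pooled WT libraries (horizontal axis, CPM) and the 4 pooled Zhr1 libraries (vertical axis, CPM), both on log axes with 0 drawn at the lower edge, for females and males; the line marks equal levels. The 349 blocks in females and 338 in males that had no read in Zhr1 are drawn as ticks along the lower edge, and the other blocks lie on both sides of the line.

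The block-wise test describes the blocks that it could reach. A filter on low counts left 219 unplaced blocks in females and 196 in males, 135 in both and 280 in either, and 174 blocks entered neither fit. A block with reads in WT alone passed through WT, so it had to differ, and the counts of falls add no support to the loss of reads. In Zhr1 females 181 of the 219 blocks fell and 10 rose (edgeR quasi-likelihood test, Benjamini-Hochberg adjusted p under 0.05), where 67.4% of all blocks tested fell and 8.93% rose. In Zhr1 males 137 of the 196 blocks fell and 42 rose, where 56.1% of all blocks fell and 25.9% rose. The median log2 difference was −6.02 in females and −5.66 in males, against −5.36 and −1.996 over all blocks tested, but fitted values of blocks at 0 depend on the prior count. The median was 0.18 in females and 0.64 in males over the X blocks tested. The log2 differences of Zhr1 females fell into groups, with 176 blocks below −3, 7 between −3 and −1, 28 within 1 of 0 and 8 above 1. In Zhr1 males the same classes held 126, 9, 24 and 37 blocks. Zhr1 was also compared with the other mutants. Against PofD119, 185 of 219 blocks fell and 7 rose in females (72.5% of all blocks fell and 6.87% rose) and 134 of 196 fell and 42 rose in males (58.6% of all blocks fell and 22.7% rose). Against PoX2Df1.688, 197 fell and 1 rose in females (80.4% of all blocks fell and 2.06% rose) and 151 fell and 34 rose in males (68.7% of all blocks fell and 16.2% rose).

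The Zhr1 calls of the sexes were set side by side. The female and male comparisons use different libraries, WT included. Among the 135 blocks tested in both, 107 fell in females and 112 in males, and 105 fell in both (98.1% of the first list and 93.8% of the second). A block with reads in WT of both sexes and none in Zhr1 had to fall in both, so nothing is read from that overlap. For rises, 8 blocks in females and 9 in males had 7 in common. No block tested in both sexes had opposite calls. Most blocks that rose in Zhr1 males were not tested in females, so they are outside this comparison. The direct test of whether the Zhr1 difference depended on sex called 0 of 288 blocks with edgeR, 17 at an unadjusted p under 0.05 and 30 with DESeq2. Of those 288 blocks, 196 had no read in either sex of Zhr1.

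The 124 blocks that had a read in at least 1 Zhr1 library differed between the sexes. Their sum was 56.7 ± 7.44 CPM in WT females and 57.1 ± 6.70 in Zhr1 females (SD, n = 4). In males it was 94.0 ± 13.4 CPM in WT and 182 ± 27.4 in Zhr1. Their 4 Zhr1 male libraries (155.9 to 216.2 CPM) lay above the 4 WT male libraries (75.7 to 107 CPM). In the 330 other blocks WT females had 190 ± 18.97 CPM and WT males 177 ± 31.3 CPM. These sets were formed from the Zhr1 counts, and the values are a description.

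Some blocks that kept reads rose in Zhr1 males, where 25.9% of all blocks tested rose. The block 211000022280211:1-1346 had 0.357, 0.274, 0.376 and 0.387 CPM in WT males and 3.22, 2.86, 3.93 and 3.43 CPM in Zhr1 males. The rise was 3.27 on the log2 scale (SE 0.29, edgeR adjusted p = 3.03e-12). The block 211000022279069:607-1157 rose from 0.238, 0.392, 0.538 and 0.281 to 3.81, 3.73, 4.66 and 4.34 CPM (log2 difference 3.51, SE 0.34, edgeR adjusted p = 2.55e-11). The block 211000022280033:854-1624 rose from 0.549 to 0.968 CPM in WT to 6.25 to 7.33 CPM in Zhr1 males (log2 difference 3.33). None of the Zhr1 male libraries overlapped WT in these blocks, which were picked as the largest rises, so this adds no support. In Zhr1 females all of them were at or below 0.402 CPM. The largest rise in Zhr1 females was that of 211000022278435:1-995, from 0.397, 0.923, 0.860 and 0.439 CPM in WT to 1.44, 2.58, 2.26 and 4.19 CPM (log2 difference 1.95, SE 0.35, edgeR adjusted p = 8.99e-06). This block was also higher in PoX2Df1.688 females, at 2.76 to 9.77 CPM, and had 0.481 to 0.963 CPM in PofD119 females.

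Blocks with no read in Zhr1 were more frequent among long blocks than among short ones. Of blocks under 500 bp, 10 of 42 (23.8%) had no read in Zhr1. The number was 29 of 66 (43.9%) for 500 to under 1000 bp, 215 of 260 (82.7%) for 1000 to under 2000 bp and 76 of 86 (88.4%) for 2000 bp or more. Long blocks did not have this in WT, where 2 of 454 blocks lacked a read.

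The sums of the length classes moved in the same manner. In Zhr1 females the blocks of 1000 to under 2000 bp were 8.50-fold and those of 2000 bp or more 6.45-fold below WT (log2 differences −3.09 and −2.69, exact permutation p = 0.0286, adjusted 0.0457 over 24 comparisons, n = 4 and 4). Blocks under 500 bp differed by −0.26 and blocks of 500 to under 1000 bp by −0.22, both with an exact permutation p of 0.171 (n = 4 and 4). In Zhr1 males the blocks of 1000 to under 2000 bp fell by 0.93 and those of 2000 bp or more by 1.31 on the log2 scale, while blocks of 500 to under 1000 bp rose 1.99-fold (each exact permutation p = 0.0286, adjusted 0.0457, n = 4 and 4). Male blocks under 500 bp differed by 0.03 (exact permutation p = 0.914, n = 4 and 4). In PoX2Df1.688 all 4 length classes were higher than in WT in both sexes, by 1.08 to 1.36 in females and by 0.66 to 1.10 in males on the log2 scale, with the same adjusted p of 0.0457.

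Per kb of satellite, the short blocks carried more reads than the long ones also in WT. Blocks under 500 bp had 0.825 CPM per kb in WT females and 1.34 in WT males, and blocks of 2000 bp or more 0.367 and 0.469.

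The direct comparison of long with short blocks was made within libraries. The sum of blocks of 2000 bp or more relative to blocks under 1000 bp was lower in Zhr1 than in WT by 2.46 in females and by 1.98 in males on the log2 scale (exact permutation p = 0.0286, adjusted 0.0857 over 6 comparisons, n = 4 and 4). Without the block 211000022278421:5-2697 the female difference was −4.66. This block alone had 8.91 to 11.3 CPM in the Zhr1 female libraries. In PofD119 the difference was 0.21 in females and 0.17 in males, and in PoX2Df1.688 it was 0.14 and 0.09, with exact permutation p from 0.0571 to 0.429 (n = 4 and 4).

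**Figure D3:**
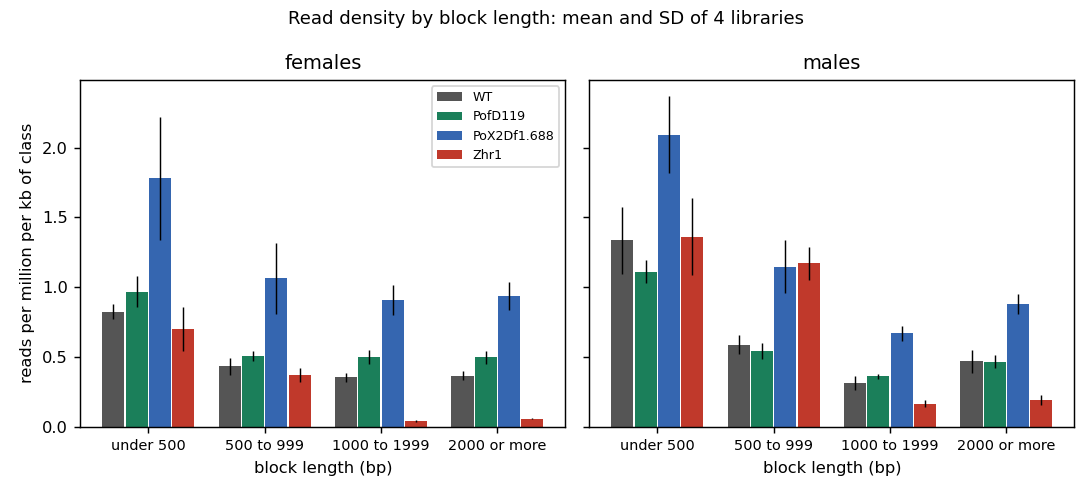
CPM per kb of the 4 length classes of unplaced blocks (horizontal axis, block length in bp; vertical axis, CPM per kb of the class), by genotype in females and males; bars start at 0 and give the mean of 4 libraries, lines the SD. In Zhr1 the bars of the longest class are at 0.0568 in females and 0.189 in males, against 0.367 and 0.469 in WT, while those of the shortest class are at 0.700 and 1.36, against 0.825 and 1.34 in WT.

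The repeat annotation of the deposited repeat table gave a second grouping, added after the data were seen. Of the 454 blocks, 259 overlapped a copy of SAR_DM, the repeat library's name for the satellite-1.688 unit, but none of SAR2_DM or ARS406_DM. Another 194 overlapped a copy of SAR2_DM or ARS406_DM, other satellite names of that library, whether or not they also overlapped SAR_DM. The remaining 1 overlapped none of these. Overlaps with other repeat names did not affect the classes. The share without a Zhr1 read was 68.3% in the first class (177 of 259) and 78.4% in the second (152 of 194). Blocks of the first class had a median length of 1132 bp and those of the second 1556.5 bp, so annotation and length went together. The sum of the second class relative to the first was lower in Zhr1 than in WT by 1.68 in females and by 1.55 in males (exact permutation p = 0.0286, adjusted 0.0357 over 10 comparisons, n = 4 and 4). In males it was higher than in WT by 0.38 in PofD119 and by 0.29 in PoX2Df1.688 with the same p. In females it differed by 0.09 and −0.01, which did not pass (exact permutation p = 0.143 and 0.8286, n = 4 and 4). It was lower in males than in females by 0.81 in WT, 0.52 in PofD119, 0.68 in Zhr1 and 0.51 in PoX2Df1.688, with the same p. The class sums hold all reads of a block, so they are not levels of SAR2_DM or ARS406_DM. Counted by name over all genomic copies, SAR2_DM differed in Zhr1 by 0.11 in females and 0.22 in males (edgeR adjusted p = 0.521 and 0.105). ARS406_DM differed by −0.43 and −0.08 (edgeR adjusted p = 0.153 and 0.808). Neither name was called in Zhr1.

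The surroundings of a block also differed. On scaffolds with no other annotated repeat, 298 of 379 blocks (78.6%) had no read in Zhr1, against 32 of 75 blocks (42.7%) on scaffolds that also held other repeats. Blocks of the first kind had a median length of 1443 bp and those of the second 772 bp, so length and surroundings went together. Of the 50 scaffolds with several blocks, 7 held blocks with and without Zhr1 reads.

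On the 6 scaffolds with the most blocks the values were compared within 1 sequence. On 4 of them every block had a Zhr1 read. Unmapped_Scaffold_24_D1707 held 12 blocks, and all 6 that were tested were higher in WT males than in WT females, where 26.6% of all blocks were. None of the 12 passed the filter in the female fits. The tested blocks thus entered mainly through male libraries, and their direction adds no support. In Zhr1 males 4 of the 6 rose and 2 fell. One that fell, Unmapped_Scaffold_24_D1707:14714-21050, is the longest of all blocks (6337 bp) and had 3.93, 3.72, 4.73 and 1.93 CPM in WT males and 0 reads in Zhr1 males, at least 76.8-fold lower. A block that rose, Unmapped_Scaffold_24_D1707:4969-6253, had 0.893, 0.862, 0.161 and 0.387 CPM in WT males and 2.68, 1.998, 2.86 and 1.83 CPM in Zhr1 males. All 4 Zhr1 male libraries were above all WT male libraries there. On scaffold 211000022280618, with 6 blocks, Zhr1 females had 2 rises and 1 fall among 4 blocks tested, with log2 differences from −2.01 to 1.64. On scaffold 211000022279653 none of 3 blocks tested was called in Zhr1 females, and all 3 fell in Zhr1 males by 0.70 to 1.58 on the log2 scale. Both blocks tested on scaffold 211000022279247 fell in both Zhr1 sexes. Both tested on scaffold 211000022280015 rose in Zhr1 males. On Unmapped_Scaffold_60_D1601 1 of 3 rose there. Over all scaffolds with at least 2 tested blocks, 11 of 15 in Zhr1 females and 19 of 25 in Zhr1 males had the same call for every tested block, and 1 and 2 had opposite calls.

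**Figure D4:**
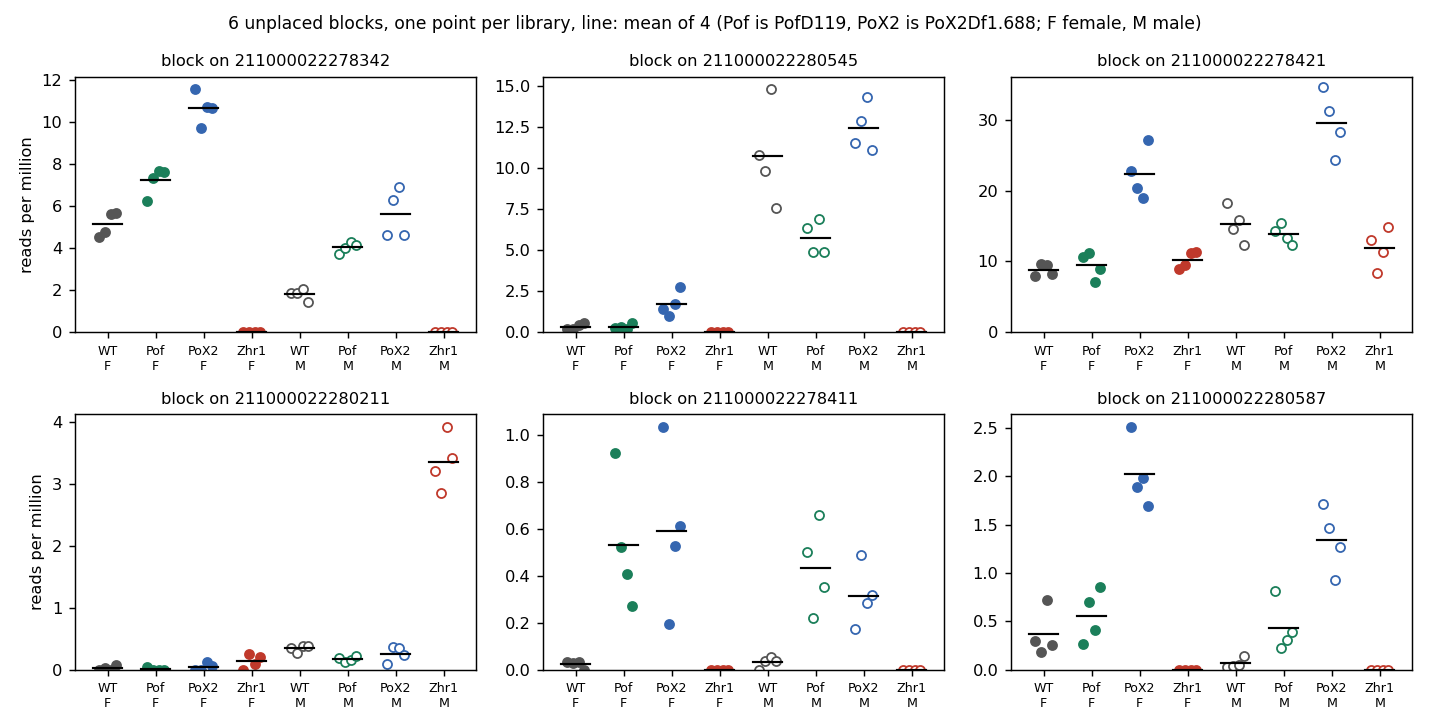
Level of 6 unplaced blocks (one panel each, vertical axis in CPM from 0) in the 32 libraries, by genotype and sex; each point is a library and each line the mean of 4. The blocks on 211000022278342, 211000022280545, 211000022278411 and 211000022280587 are at 0 in all 8 Zhr1 libraries, the block on 211000022278421 is at 8.33 to 14.9 in them, and the block on 211000022280211 is at 2.86 to 3.93 in Zhr1 males.

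In PoX2Df1.688 the called blocks were nearly all higher than in WT. In females 185 of 219 blocks rose and 3 fell, where 77.7% of all blocks tested rose and 2.06% fell, and the median log2 difference was 1.43 against 1.38 over all blocks. In males 120 of 196 rose, where 59.7% of all blocks rose, with a median of 1.19. None of the 196 fell with edgeR, at an unadjusted p under 0.05 or with DESeq2, where 0.719% of all blocks tested fell. Among the 135 blocks tested in both sexes, 121 rose in females and 107 in males, and 105 rose in both (86.8% and 98.1%). With the block table's own totals as library sizes, which removes a shift common to all blocks, 22 rose and 17 fell in females and 49 rose and 37 fell in males.

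The largest rises in PoX2Df1.688 were in blocks with few WT reads. In females 211000022278612:1181-2271 went from 0 to 0.0688 CPM in WT to 0.518, 0.776, 0.661 and 0.882 CPM, with 46 reads against 5 (log2 difference 3.93, SE 0.74, edgeR adjusted p = 3.23e-05). The block 211000022278823:3-2283 went from 0.232, 0.0616, 0.138 and 0.256 to 2.22, 1.6002, 1.59 and 1.83 CPM (log2 difference 3.38, SE 0.47, edgeR adjusted p = 6.50e-07). In males 211000022280587:1-3115 had 0.0298, 0.0392, 0.0538 and 0.141 CPM in WT and 1.72, 1.47, 0.926 and 1.27 CPM in PoX2Df1.688 (log2 difference 4.31, SE 0.56, edgeR adjusted p = 4.35e-07). In all of them the PoX2Df1.688 libraries were above the WT libraries without overlap, and all were at 0 in Zhr1. These blocks were picked as the largest rises, and with so few WT reads they could enter the fit only through other groups. The lack of overlap and the p-values therefore add no support. The blocks 211000022278471:9-1678 and 211000022278465:1-1805 rose by 4.13 and 4.05 in males. The 3 blocks that fell in females were 211000022280298:280-1709, 211000022280293:1-1890 and 211000022280296:1-1484. The first of them had 1.19, 1.6007, 0.722 and 0.768 CPM in WT females and 0.518, 0.388, 0.265 and 0.339 CPM in PoX2Df1.688 females (log2 difference −1.49, SE 0.40, edgeR adjusted p = 0.00116).

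On the log2 scale, the change in PoX2Df1.688 was lower in males than in females for a small set of blocks. The interaction of genotype and sex called 17 of 288 blocks, all with the lower log2 change in males, where 4.82% of all blocks tested were called in that direction (edgeR quasi-likelihood test). In pooled CPM, 211000022280545:1-6000 went from 0.344 in WT to 1.67 in PoX2Df1.688 females and from 11.1 to 12.6 in males. The block 211000022280032:1270-3930 went from 0.227 to 1.09 in females and from 6.92 to 6.33 in males. DESeq2 called 20. All 17 were at or below 0.344 CPM in WT females over the 4 libraries, and all had a lower pooled level in PoX2Df1.688 females than in PoX2Df1.688 males. The block 211000022280123:1-1105, for example, had 0.0994, 0.154, 0.103 and 0.0366 CPM in WT females and 0.740, 0.679, 1.26 and 1.90 in PoX2Df1.688 females. It had 3.87, 2.51, 2.98 and 2.004 CPM in WT males and 4.04, 3.85, 2.42 and 2.86 in PoX2Df1.688 males, which overlapped. The interaction was −3.21 on the log2 scale (SE 0.57, edgeR adjusted p = 0.000624).

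In PofD119 the blocks moved less, and calls went in both directions only in males. In females 22 of 219 blocks rose, where 12.7% of all blocks tested rose. This count was 12 without TMM factors, 3 with the block table's own totals and 10 to 32 with single libraries left out, the lowest without WT female replicate 4. The median log2 difference was 0.47 against 0.44 over all blocks. None of the 219 fell with edgeR or with DESeq2, and 1 fell at an unadjusted p under 0.05. In males 53 of 196 rose and 33 fell, where 26.3% of all blocks rose and 13.7% fell, with a median of 0.23. Of 135 blocks tested in both sexes, 14 rose in females and 53 in males, and 9 rose in both (64.3% and 16.98%). The interaction with sex called 0 of 288 blocks with edgeR and 0 with DESeq2, and 22 at an unadjusted p under 0.05.

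A few blocks were nearly silent in WT and present in PofD119. The block 211000022278411:529-838 had 3 reads over the 4 WT female libraries and 0.924, 0.524, 0.407 and 0.270 CPM in PofD119 females. The pooled ratio was 21.4 with a 95% exact interval of 6.95 to 107, which covers counting error of independent reads only. The fitted log2 difference was 4.13 (SE 0.76, edgeR adjusted p = 0.000135). The block 211000022278268:1-1312 rose in both sexes, from 0.0662 to 0.256 CPM in WT females to 1.12, 0.873, 0.629 and 0.853 CPM, and from 0 to 0.298 CPM in WT males to 0.378, 0.664, 0.544 and 0.657 CPM. The block 211000022278544:53-1142 had the largest rise in males, from 0.268, 0.0784, 0.0806 and 0 CPM to 1.196, 1.06, 1.13 and 0.964 CPM (log2 difference 3.22, SE 0.49, edgeR adjusted p = 3.65e-06). In each case the PofD119 libraries lay above WT without overlap. These blocks were picked as the largest rises, so the lack of overlap, the interval and the p-values add no support. The block 211000022278726:18-1645 rose by 2.38 in females and 211000022278233:8-1971 by 2.59 in males. The largest falls in PofD119 males were −1.36 at 211000022279289:1-1021, −1.34 at 211000022279509:531-854 and −1.32 at Unmapped_Scaffold_24_D1707:4969-6253.

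Within the overlapping WT sums of the sexes lay blocks with opposite sex differences. Of 288 blocks tested, 79 were higher and 119 lower in WT males than in WT females, where 26.6% and 31.2% of all blocks tested were called in these directions (edgeR quasi-likelihood test). The median log2 male to female difference was −0.91 over the unplaced blocks tested, −0.34 over X blocks and 0.93 over 3L blocks. In PofD119 65 were higher and 92 lower in males (21.6% and 23.9% of all blocks), and in PoX2Df1.688 58 were higher and 92 lower (19.3% and 24.4% of all blocks). In Zhr1 35 were higher and 2 lower (12.4% and 0.508% of all blocks), and most blocks had no read in either sex. The Zhr1 male sum was 3.17-fold the Zhr1 female sum (log2 difference 1.67, exact permutation p = 0.0286, adjusted 0.0571, n = 4 and 4). The PofD119 and PoX2Df1.688 sums differed between the sexes by −0.25 and −0.22 (exact permutation p = 0.0571 and 0.143, n = 4 and 4).

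Single blocks with mostly male reads were close to absent from females. The block Unmapped_Scaffold_24_D1707:21551-22882 had 0.923, 0.862, 1.34 and 0.422 CPM in WT males and 0 reads in WT females, at least 36.6-fold higher in males. It had 0 reads in Zhr1 males too. The block 211000022280014:99-1031 had 63 reads in WT males and 0 in WT females (at least 20.05-fold higher), and it was present in Zhr1 males at 2.68, 2.26, 3.20 and 4.04 CPM. In Zhr1 the block 211000022280196:1-1555 had 4.17, 7.06, 5.50 and 8.92 CPM in males and 3 reads in females, a pooled ratio of 147 with an exact 95% interval of 50.1 to 718. The block Unmapped_Scaffold_60_D1601:16022-18763 had 2.32, 0.533, 0.225 and 3.20 CPM in Zhr1 males, a wide spread, and no read in Zhr1 females (at least 35.1-fold higher). In PofD119 the blocks 211000022280031:1-1473 and 211000022279844:1454-3646 were higher in males by 5.76 and 5.68 on the log2 scale.

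Differences in the female direction were smaller. The largest in WT was at 211000022278629:1180-2259, with 0.397, 0.339, 0.241 and 0.439 CPM in females and 0.0893, 0, 0.0538 and 0 CPM in males (log2 male to female difference −2.99, SE 0.76, edgeR adjusted p = 0.000913). The next was −2.71 at 211000022280297:1-1401. In PoX2Df1.688 the largest were −2.37 at 211000022280295:1-3348 and −2.01 at 211000022280657:1-1903. In PofD119 they were −2.998 at 211000022279064:1-1637 and −2.27 at 211000022278461:2-2209. The 2 blocks lower in Zhr1 males were 211000022280298:280-1709 and 211000022278724:12-937, with differences of −1.78 and −1.71.

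The sex difference in mutants other than Zhr1 and the loss of reads in Zhr1 could be compared over different libraries. Among blocks with at least 20 reads in PoX2Df1.688, the 273 with no Zhr1 read had a median log2 male to female ratio of −0.80, and 228 of them were lower in males. A smaller group of 27 of the 273 was over 2, that is, mostly male. The 97 with a Zhr1 read had a median of 0.30, 67 were higher in males and 21 were over 2. In PofD119 the medians were −0.84 (270 blocks) and 0.30 (92 blocks). Of the 92 blocks called lower in PoX2Df1.688 males, all were tested in Zhr1 females, where 86 fell and 1 rose, and 70 were tested in Zhr1 males, where 68 fell. Of the 58 called higher in PoX2Df1.688 males, all were tested in Zhr1 males, where 25 rose and 30 fell, and 8 in Zhr1 females, where 6 fell. Over all unplaced blocks tested, 82.6% fell in Zhr1 females, and in Zhr1 males 69.9% fell and 21.4% rose. These sets were formed after the counts were seen, so they carry no test.

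**Figure D5:**
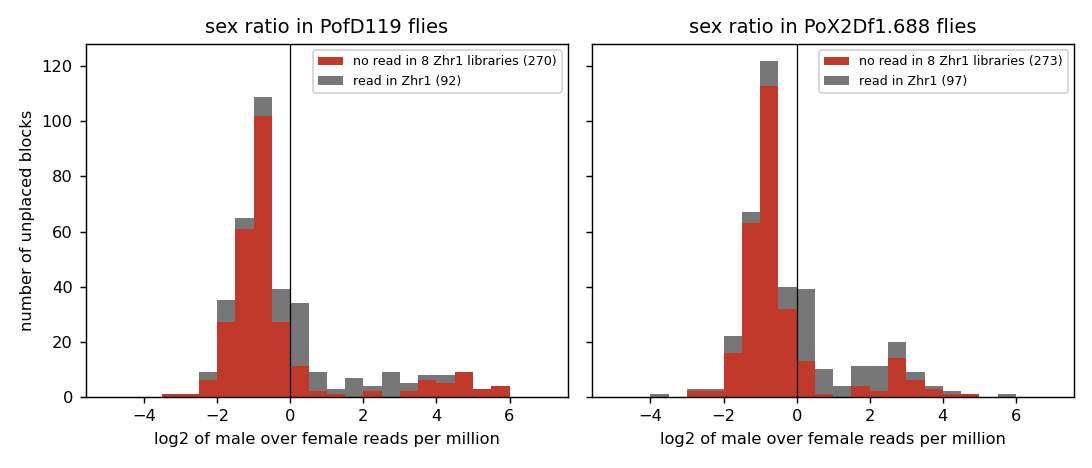
Number of unplaced blocks (vertical axis) by the log2 ratio of male over female CPM (horizontal axis) in PofD119 and PoX2Df1.688 flies, for blocks with at least 20 reads; stacked bars separate blocks with no read and with a read in the 8 Zhr1 libraries. The blocks with no Zhr1 read have medians of −0.84 and −0.80, with 31 and 27 blocks above 2, and the others have a median of 0.30 in both mutants.

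The deposited table of reads by repeat name, which counts read pairs over all genomic copies, holds the same satellite under the name SAR_DM. Its 776 copies gave 291 ± 27.6 CPM in WT females and 143 ± 18.04 CPM in Zhr1 females (SD, n = 4; log2 difference −1.05, SE 0.12, edgeR adjusted p = 1.94e-07). In males it gave 371 ± 54.9 CPM in WT and 370 ± 58.4 CPM in Zhr1 (edgeR adjusted p = 0.873). In PoX2Df1.688 it gave 666 ± 90.0 CPM in females and 668 ± 62.8 CPM in males. The related name SAR2_DM with 439 copies gave 34.9 ± 3.96 CPM in WT females and 38.4 ± 4.97 CPM in Zhr1 females (edgeR adjusted p = 0.521).

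Genes whose products act on satellite chromatin or in small RNA silencing of repeats were read from the gene table, from a list of 17 genes. The list was chosen with earlier results of these data known, so its counts against all genes are a description. In Zhr1 females 9 of 17 rose and 1 fell, where 20.3% of all genes tested rose and 20.8% fell, and the list median was 0.45 against −0.01 over all genes on the log2 scale. The satellite-binding protein gene D1 rose by 0.54 (SE 0.09, edgeR adjusted p = 0.000262), from 84.4 ± 2.92 to 125 ± 8.88 CPM, and Top2, the gene of topoisomerase 2, by 0.61 (SE 0.17). The gene of the heterochromatin protein HP1a and the histone methyltransferase genes Su(var)3-9 and egg rose by 0.48, 0.64 and 0.45. The centromere genes cid and Cenp-C rose by 1.09 and 0.50, and Hmr and moon, a gene of germline piRNA source transcription, by 0.40 and 1.17. AGO2, which acts in small RNA silencing, fell by 0.29. The genes mh, Lhr, rhi, cuff, del, piwi and Dcr-2 were not called, with log2 differences from −0.12 (Lhr) to 0.52 (del). Many of these genes are high in ovaries, and 4 female germline genes summed to 521 to 712 CPM in WT females and to 1002 to 1335 CPM in Zhr1 females without overlap. In PoX2Df1.688 females they summed to 815 to 933 CPM, also above WT, and eggshell genes to 1144 to 2864 CPM, against 239 to 1101 CPM in WT females. Their part in the gene results was not tested. In Zhr1 males 0 of 16 genes tested were called by edgeR, 4 passed an unadjusted p under 0.05 and 0 were called by DESeq2, where 12.6% of all genes rose and 10.4% fell. In PofD119 females Cenp-C, del and AGO2 fell, 3 of 17, where 8.41% of all genes fell and 8.09% rose. In PofD119 males Su(var)3-9 rose, where 13.6% of all genes rose, and del and AGO2 fell, where 11.6% fell. In PoX2Df1.688 females D1 rose and AGO2 fell, where 8.9% of all genes rose and 10.5% fell. In PoX2Df1.688 males the HP1a gene fell, where 9.42% of all genes fell and 11.5% rose.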

How the data were processed

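RNA of whole flies was sequenced in 32 libraries, 4 for each of 4 genotypes and both sexes, and samples were grouped by their labels. Each library is a separate pool of flies of 1 stock, so p-values measure the spread between pools. The authors trimmed reads (Trimmomatic 0.36), removed ribosomal RNA, aligned with STAR 2.5.4b and made raw counts with featureCounts 1.6.3, with no normalization. The deposited counts are of 3 kinds. Block counts are single reads with multi-mapping reads counted at every place, without strand, over merged matches to 9 search sequences. Gene counts are uniquely mapped read pairs, and repeat counts are read pairs including multi-mapping ones, summed by repeat name. STAR reports a read at up to 10 places by default, so reads from longer arrays may be missing from the counts. A change in 1 block can appear in every block that shares its reads, and p-values over blocks may not be independent.

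Blocks passing filterByExpr were tested with edgeR 4.0.16 quasi-likelihood fits (glmQLFit, glmQLFTest) in R 4.3.3, with 16 libraries of a sex for mutant against WT and all 32 for sex differences. Library sizes were gene totals times TMM factors, about 12186500 to 37992600 read pairs before scaling. Benjamini-Hochberg adjustment covered all blocks tested, and calls are adjusted p under 0.05. Sums over blocks are CPM on the same scale, with 0.5 added to the counts before log2, and were compared by two-sided exact permutation over the 70 groupings of 4 against 4. Folds against a group with no read used a floor of 3 counts over the group, and ratios have exact 95% intervals. Both take counts as independent. Both mates of a pair can count in a block, so these bounds and intervals may be too narrow. Named blocks are the 5 with the highest mean CPM, the 3 largest called rises and falls of each mutant comparison and the 2 largest of each sex comparison among blocks with a mean of at least 10 counts in a group, and the scaffolds with 4 or more blocks. Other blocks that the text names were chosen after their values were seen. Alternatives were DESeq2 1.42.0, other library sizes, no count filter, a log2 fold change of at least 1, 1 fit of all libraries, blocks merged by scaffold or by identical counts, medians, a replicate block and leaving out each library. The fits were tested on simulated counts. The satellite chromatin gene list and the blocks were chosen with earlier results of these data known. The comparison of blocks by the closest search sequence was not made here, because no scaffold sequence was used.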

Additional observations from a re-analysis of the deposited data

Results flagged for a closer look

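The change of blocks in PoX2Df1.688 differed between the sexes at 17 of 288 blocks by the interaction test (edgeR quasi-likelihood, adjusted p under 0.05), each with the lower log2 change in males. DESeq2 called 20.

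In 20 of 408 groups of 4 values a library stood far from the other 3, where chance gives about 1 in 20 groups. In the class of 1000 to under 2000 bp, Zhr1 female replicate 3 had 18.8 CPM. At 211000022278620:1-1637, WT female replicate 3 had 5.30 CPM and PoX2Df1.688 female replicate 3 had 8.66 CPM, the highest of the first group and the lowest of the second. At 211000022278435:1-995, Zhr1 male replicate 2 had 1.33 CPM, below the other 3.

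Most of the other values rest on few reads. PoX2Df1.688 male replicate 1 had 0.859 CPM at 211000022280161:71-1794. WT female replicate 4 had 0 CPM at 211000022278411:529-838, and WT female replicate 2 had 0.277 CPM at 211000022278726:18-1645. WT male replicate 1 had 0.298 CPM at 211000022278268:1-1312 and 0.268 CPM at 211000022278233:8-1971. PofD119 female replicate 1 had 0.0385 CPM at 211000022280211:1-1346 and 0.0770 CPM at 211000022279844:1454-3646. PofD119 female replicate 3 had 0.111 CPM at 211000022279289:1-1021 and 0.0370 CPM at 211000022280031:1-1473.

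PofD119 female replicate 4 had 0.0898 CPM at Unmapped_Scaffold_60_D1601:16022-18763, where the other 3 had none. Zhr1 female replicate 3 had 0.302 CPM at Unmapped_Scaffold_24_D1707:4969-6253, where the other 3 had none. PofD119 male replicate 2 had 0.620 CPM at 211000022278629:1180-2259, and PofD119 male replicate 3 had 0.194 CPM at 211000022279064:1-1637. PoX2Df1.688 male replicate 1 had 2.58 CPM at 211000022278465:1-1805. At 211000022280295:1-3348, Zhr1 female replicate 4 had 0.466 CPM and Zhr1 male replicate 3 had 0.337 CPM, the lowest of their groups.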

How the results depend on the processing

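Of 403 alternative values, 366 kept their direction and their side of the threshold, and 1 changed direction. Without the filter on low counts, the calls were 333 in Zhr1 females, 272 in Zhr1 males and 194 in PoX2Df1.688 males, as 453 or 454 blocks were then tested. The 22 rises of PofD119 females were 12 without TMM factors and 3 with the block table's own totals, and 10 to 32 when single libraries were left out. The 10 came without WT female replicate 4, and the count was 11 without PofD119 female replicate 1 and 14 without WT female replicate 1, WT female replicate 2 or PofD119 female replicate 3. With the block table's own totals PoX2Df1.688 females had 39 calls, 22 higher and 17 lower. PofD119 males had 40 calls with a log2 fold change of at least 1, and 57 to 77 with single libraries left out, the lowest without WT male replicate 3. DESeq2 called 30 blocks in the Zhr1 interaction with sex. The cause of these shifts was not tested.

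In no comparison did all 4 same-numbered pairs correlate above 0.1 (range −0.157 to 0.310), so the numbers were not taken to pair the samples. With the replicate block, a sign-flip test, the smallest p is 0.125, so no sum could pass, and mean differences are the same by construction. These were −2.11 (Zhr1 females), 0.45 (PofD119 females), 1.33 and 0.99 (PoX2Df1.688 females and males) and 1.67 (Zhr1 males against females) for the sums, and for the unplaced to X differences −2.09 and −0.80 (Zhr1), −0.73 and −1.21 (PofD119) and 0.77 (PoX2Df1.688 females). In the block-wise fits the replicate block moved no count of calls by over 1.5 times.

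Without TMM factors the PofD119 female sum was 0.33 higher than WT (exact p = 0.0571) and the PoX2Df1.688 male to female difference was −0.32 (exact p = 0.0286). The median over blocks gave −2.48 for Zhr1 males and 0.57 for PofD119 males, and unplaced to X differences of −0.43 in PofD119 females and 0.54 in PoX2Df1.688 males. With single libraries left out, the Zhr1 male sum ran from −0.69 (without WT male replicate 4, exact p = 0.0286) to −0.50. The PofD119 male sum ran from −0.051 to 0.13, with the sign reversed only without WT male replicate 4. The Zhr1 male unplaced to X difference ran from −0.93 to −0.73, and the PofD119 male long to short difference from 0.14 to 0.21. For the long to short difference, leaving out the block with the most reads and leaving out libraries were added after seeing the data. Depth limits the blocks with few reads, since 174 of 454 blocks entered neither fit.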
